A study of Mus musculus with 3 samples.

Results

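Calcineurin is the calcium-dependent phosphatase that cyclosporin A (CSA) blocks, and 9 genes of its pathway were followed here in donor T cells from mice given CSA after an allogeneic bone marrow transplant. The genes were named by symbol and not by their values, though with earlier results of these data known. They were the catalytic subunit genes *Ppp3ca*, *Ppp3cb* and *Ppp3cc*, the regulatory subunit gene *Ppp3r1*, the calcium-regulated transcription factors *Nfatc1*, *Nfatc2* and *Nfatc3*, the related factor *Nfat5*, and *Rcan1*, a calcineurin inhibitor. All 9 were among the 18029 genes of the table and passed the filter on low counts in both CD4+ and CD8+ T cells, *Rcan1* with few counts.

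Lethally irradiated B6D2F1 mice received B6 bone marrow (5000000 cells), B6 T cells (2000000 cells) and 1000 TEa cells, CD4+ T cells of B6 background that carry 1 transgenic T cell receptor and lack *Rag1*. From day 0 to day 6 the recipients were injected daily with saline, with CSA at 5 mg/kg or with CSA at 50 mg/kg, 6 mice in each group. No age was given for the mice. On day 7 the spleens of each group were joined in 3 pools of 2 mice, each pool was marked with its own hashtag antibody, and sorted CD4+ and CD8+ T cells were then mixed 1:1 within the group and loaded in 1 capture for single-cell RNA sequencing from the 5′ end. Since each group was 1 capture, the treatment and the capture cannot be told apart.

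In T cells, a rise in calcium after antigen binding opens the active site of calcineurin, a pair of a catalytic A and a regulatory B subunit. Calcineurin removes phosphates from NFATc1, NFATc2 and NFATc3, which then enter the nucleus and bind DNA at GGAAA sequences, often next to AP-1 proteins. CSA acts by binding cyclophilin A, the product of *Ppia*, and the complex covers the calcineurin surface that NFAT needs. NFAT5 has a related DNA-binding domain, has no calcineurin docking region and is best known as the factor that answers osmotic stress. *Rcan1* is read from 2 starts, and the downstream one is a known NFAT-driven promoter, so that the inhibitor is made when calcineurin is active.

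The 250 bases before 4 starts are shown because CSA acts on the factors that read GGAAA, and because the starts of *Rcan1* differ in it. The sequences are from RefSeq on GRCm38.p6, 5′ to 3′ on the strand of the gene, and capitals mark GGAAA on either strand (TTTCC when read on the other). They are, in order, a downstream start of *Rcan1* (chr16:92400079-92400328, minus strand), an upstream start of it (chr16:92466170-92466419, minus strand), a start of *Nfatc2* (chr2:168601658-168601907, minus strand) and the start of *Nfat5* (chr8:107293220-107293469, plus strand).
Rcan1 downstream: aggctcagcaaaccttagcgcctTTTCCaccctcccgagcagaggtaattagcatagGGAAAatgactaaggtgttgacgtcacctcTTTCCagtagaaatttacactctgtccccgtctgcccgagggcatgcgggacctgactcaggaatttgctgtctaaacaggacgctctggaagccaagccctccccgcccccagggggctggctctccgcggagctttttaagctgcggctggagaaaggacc
Rcan1 upstream: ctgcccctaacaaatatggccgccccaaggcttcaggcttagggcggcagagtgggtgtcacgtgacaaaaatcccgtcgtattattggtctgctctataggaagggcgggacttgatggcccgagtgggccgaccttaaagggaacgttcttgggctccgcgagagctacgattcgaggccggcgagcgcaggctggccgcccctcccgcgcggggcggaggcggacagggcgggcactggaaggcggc
Nfatc2: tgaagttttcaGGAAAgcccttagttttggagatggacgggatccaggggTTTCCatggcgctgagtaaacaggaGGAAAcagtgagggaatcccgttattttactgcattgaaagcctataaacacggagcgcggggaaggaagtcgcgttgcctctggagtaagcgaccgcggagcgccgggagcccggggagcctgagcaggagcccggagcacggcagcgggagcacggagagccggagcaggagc
Nfat5: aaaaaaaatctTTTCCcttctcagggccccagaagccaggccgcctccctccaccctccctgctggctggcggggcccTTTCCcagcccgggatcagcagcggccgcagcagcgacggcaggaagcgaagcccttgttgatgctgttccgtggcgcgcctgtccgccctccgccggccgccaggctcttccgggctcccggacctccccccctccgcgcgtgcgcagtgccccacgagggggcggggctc
The downstream window of *Rcan1* held 3 matches to GGAAA, of which 2 were TGGAAA, and 1 match to the AP-1 letters TGANTCA, whereas the window 66091 bases upstream held none of them. Both *Rcan1* windows lay inside the span of the gene (chr16:92391953-92470867) and touched no exon. The *Nfatc2* window, outside its gene, held 3 matches to GGAAA, 1 of them TGGAAA, and that of *Nfat5*, also outside its gene, held 2. Windows were at hand for 6 of the 9 genes, 9 windows in all, with 0 to 3 matches. Of those not shown, another *Nfatc2* window held 1 and no TGGAAA, those of *Nfatc3* 1 and 0, that of *Ppp3cb* 3 and that of *Ppp3r1* 0. Of all 32851 mouse windows of this length, 55.6% held GGAAA on either strand, 18.6% held TGGAAA and 6.75% held TGANTCA, so a match is a description of these letters and not a binding site. The 5′ counts were summed per gene and did not separate the starts of *Rcan1*.

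The counts held 21204 cells, 280 of them TEa cells that were kept out of the CD4+ sums. The sums over a pool ran from 3994968 to 7592334 UMIs (unique molecules counted) in CD4+ cells and from 4392100 to 11454636 in CD8+ cells. The median UMIs per cell rose with the dose, from 3107 to 4416 and 5998 in CD4+ cells and from 4108 to 6121.5 and 7183 in CD8+ cells. *Cd3e* was between 949 and 1134 CPM (UMIs scaled to a common library total) in all pools, *Cd8a* was at 0 in the CD4+ and *Cd4* at 0 in the CD8+ cells, and *Cd8b1* was at 20.8 to 153 CPM in CD4+ pools. Pairs of captures shared 58 to 85 cell barcodes, and 1080 cells (5.09%) carried a second hashtag of at least 0.5 times the strongest. Without those cells, which was tried after the data had been seen, no call of the 9 genes changed in the 6 comparisons of whole lineages. The summed level of the 6 B cell markers was 270.1 to 289 CPM in saline and 363 to 372 CPM at 50 mg/kg in CD4+ pools, and 224 to 241 against 376 to 385 CPM in CD8+ pools. For the 6 erythroid markers it was 3.21 to 14.8 against 27.7 to 37.0 CPM in CD4+ pools and 4.15 to 17.9 against 24.6 to 48.7 CPM in CD8+ pools. The part of these markers and of depth in the results was not tested. In sums over cells, fewer cells of a type and less RNA per cell cannot be told apart.

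Most of the pathway genes were lower under CSA in both lineages, relative to the other genes. In CD4+ cells 6 of the 9 were lower and 1 higher at 5 mg/kg than in saline, where 25.6% of the 10568 genes tested were lower and 26.1% higher. At 50 mg/kg 7 were lower and 2 higher, against 35.8% and 34.7% of all genes. In CD8+ cells 6 were lower and none higher at 5 mg/kg (30.3% and 29.9% of the 10841 genes tested), and 6 were lower and 2 higher at 50 mg/kg (36.9% and 37.1%). The median log2 change of the 9 genes was −0.50 and −0.60 in CD4+ and −0.64 and −0.74 in CD8+ cells at the lower and the higher dose, beside −0.01, −0.01, −0.00 and 0.00 over all genes. Both doses were set against the same saline pools. The calls were made with edgeR's quasi-likelihood test on UMI counts summed per pool, at an adjusted p (Benjamini-Hochberg over all genes tested) below 0.05. The 3 pools of a group held different mice, so their spread is that between pairs of mice within 1 capture.

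Among the called changes over whole lineages, the direction of 2 of the genes depended on how the libraries were scaled. The levels below are CPM scaled with TMM factors, which were 1.2 to 1.25 in saline and 0.856 to 0.946 in CSA pools. With plain library sizes the median of all genes moved to −0.37 at 5 and −0.45 at 50 mg/kg in CD4+ cells and to −0.43 and −0.53 in CD8+ cells, and the share of calls that were lower moved from 50.8% to 79.6% in CD4+ and from 49.9% to 80.1% in CD8+ cells at 50 mg/kg. At 5 mg/kg it moved from 49.6% to 86.1% and from 50.3% to 84.2%, and between the doses from 51.8% to 66.9% and from 51.2% to 71.7%. Under that scaling *Nfatc1*, *Nfatc2*, *Nfatc3*, *Nfat5*, *Ppp3cb* and *Ppp3r1* stayed lower at both doses in both lineages, by more than under TMM, whereas against saline over whole lineages *Ppp3cc* turned from above to below 0 at both doses and the rise of *Ppp3ca* at 50 mg/kg was no longer called.

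The 3 catalytic subunit genes did not move together. *Ppp3ca* encodes the alpha form of the catalytic subunit, the main one in brain and also made by T cells. In CD4+ cells its pools were at 65.8, 56.8 and 65.3 CPM in saline, 57.3, 60.6 and 56.2 CPM at 5 mg/kg and 97.0, 94.8 and 87.0 CPM at 50 mg/kg. In CD8+ cells they were at 74.9, 80.8 and 80.6 CPM, 76.7, 67.7 and 74.7 CPM, and 102, 113 and 102 CPM in the same order. All pools at 50 mg/kg lay above all others in both lineages, and the pools at 5 mg/kg overlapped those of saline. The change at 5 mg/kg was −0.11 and not called in both lineages under TMM, whereas with library sizes it was −0.47 (adjusted p = 2.07e-05) in CD4+ and −0.54 (adjusted p = 9.71e-07) in CD8+ cells. At 50 mg/kg *Ppp3ca* was higher than in saline by a log2 change of 0.57 ± 0.07 (SE, adjusted p = 1.70e-07) in CD4+ and 0.42 ± 0.06 (adjusted p = 4.17e-06) in CD8+ cells under TMM, whereas with library sizes the changes were 0.13 (adjusted p = 0.0852) and −0.11 (adjusted p = 0.0928). It also rose from 5 to 50 mg/kg, by 0.68 ± 0.07 (adjusted p = 1.33e-07) in CD4+ and 0.53 ± 0.06 (adjusted p = 3.03e-06) in CD8+ cells, and with library sizes by 0.60 and 0.42, where the median of all genes moved by −0.09 and −0.11.

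*Ppp3cb*, the beta form, went the other way. Its CD4+ pools were at 81.5, 82.8 and 87.3 CPM in saline, 53.2, 59.9 and 55 CPM at 5 mg/kg and 58.2, 52.7 and 54.8 CPM at 50 mg/kg. In CD8+ pools the levels were 89.3, 93.5 and 95.9 CPM, 56.5, 65.0 and 71.1 CPM, and 54.5, 55.1 and 57.4 CPM. Every CSA pool was below every saline pool, and the doses overlapped in both lineages. The changes from saline were −0.58 ± 0.07 (adjusted p = 3.32e-07) and −0.60 ± 0.06 (adjusted p = 4.00e-08) in CD4+ and −0.51 ± 0.07 (adjusted p = 3.07e-06) and −0.74 ± 0.06 (adjusted p = 1.01e-08) in CD8+ cells at 5 and 50 mg/kg.

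*Ppp3cc*, the gamma form, was higher under TMM at 50 mg/kg in both lineages and at 5 mg/kg in CD4+ cells only. Its CD4+ pools were at 77.1, 81.4 and 90.4 CPM in saline, 101, 99.2 and 96.8 CPM at 5 mg/kg and 95.2, 96.5 and 104 CPM at 50 mg/kg. The CD8+ pools were at 88.3, 76.8 and 84.5 CPM, 86.3, 87.6 and 97.1 CPM, and 102, 115 and 117 CPM. In CD4+ cells the CSA pools were above all saline pools at both doses, and in CD8+ cells only those at 50 mg/kg were. Under TMM the log2 changes were 0.25 ± 0.06 (adjusted p = 0.00280) and 0.24 ± 0.06 (adjusted p = 0.00143) in CD4+ cells and 0.13 ± 0.07 (adjusted p = 0.112) and 0.43 ± 0.06 (adjusted p = 1.02e-05) in CD8+ cells, whereas with library sizes they were −0.11 (adjusted p = 0.137), −0.20 (adjusted p = 0.00805), −0.29 (adjusted p = 0.00109) and −0.10 (adjusted p = 0.16).

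*Ppp3r1* encodes the calcium-binding regulatory subunit that every calcineurin in T cells needs. Its CD4+ pools were at 44.6, 43.3 and 39.5 CPM in saline, 31.5, 34.6 and 28.6 CPM at 5 mg/kg and 30.7, 28.2 and 25.7 CPM at 50 mg/kg. Those of CD8+ cells were at 43.2, 44.0 and 41.8 CPM, 23.2, 27.7 and 29.1 CPM, and 27.7, 29.5 and 27.4 CPM. No CSA pool reached a saline pool, and the difference between the doses was not called in either lineage (adjusted p = 0.213 and 0.705). The changes from saline were −0.43 ± 0.09 (adjusted p = 0.000576) and −0.59 ± 0.09 (adjusted p = 5.99e-06) in CD4+ and −0.67 ± 0.08 (adjusted p = 2.21e-06) and −0.61 ± 0.08 (adjusted p = 1.65e-06) in CD8+ cells.

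**Figure D1:**
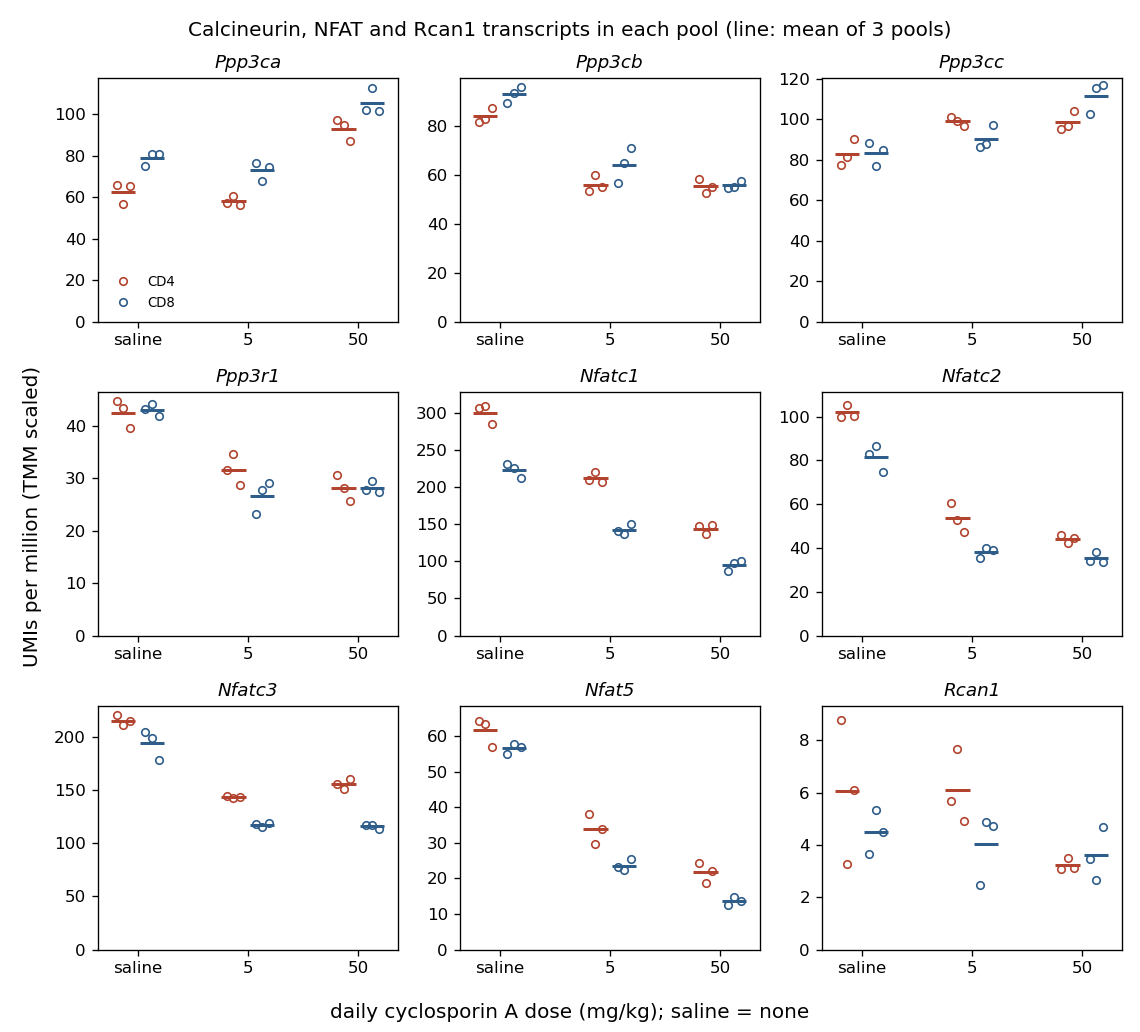
Level of each of the 9 genes per pool (y axis, TMM-scaled CPM) without CSA and with CSA at each dose, for CD4+ and CD8+ cells. Each point is 1 pool of 2 mice and the bars are group means. *Nfatc1* and *Nfat5* step down at each dose, *Ppp3cb*, *Nfatc2* and *Nfatc3* fall mostly at 5 mg/kg, *Ppp3ca* is higher at 50 mg/kg under this scaling but not called with library sizes, and the *Rcan1* pools overlap except between the doses in CD4+ cells.

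*Nfatc1*, the NFAT factor that activated T cells raise through their own NFAT-driven promoter, fell at each step of dose in both lineages. Its CD4+ pools were at 306, 310.3 and 285 CPM in saline, 209.9, 220.1 and 207 CPM at 5 mg/kg and 147, 137 and 149 CPM at 50 mg/kg. The CD8+ pools were at 232, 226 and 212 CPM, 141, 137 and 151 CPM, and 87.5, 98.4 and 100.1 CPM. The 3 groups did not overlap in either lineage. In CD4+ cells the change from saline was −0.50 ± 0.05 (adjusted p = 1.82e-08) at 5 and −1.06 ± 0.05 (adjusted p = 3.91e-14) at 50 mg/kg, and in CD8+ cells it was −0.64 ± 0.06 (adjusted p = 1.89e-08) and −1.22 ± 0.06 (adjusted p = 1.07e-12). The step from 5 to 50 mg/kg was −0.55 ± 0.05 (adjusted p = 1.73e-08) in CD4+ and −0.58 ± 0.06 (adjusted p = 5.39e-07) in CD8+ cells.

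*Nfatc2*, the form that resting T cells hold ready in the cytoplasm, had most of its fall at the lower dose. In CD4+ cells the pools were at 99.9, 105 and 100.4 CPM in saline, 60.4, 52.9 and 47.1 CPM at 5 mg/kg and 46.0, 42.2 and 44.5 CPM at 50 mg/kg. In CD8+ cells they were at 82.7, 86.6 and 74.8 CPM, 35.5, 40.2 and 38.9 CPM, and 34.0, 38.2 and 33.7 CPM. The CSA pools were far below the saline pools, and the doses overlapped in CD8+ but not in CD4+ cells. The changes were −0.95 ± 0.07 (adjusted p = 9.60e-10) and −1.21 ± 0.07 (adjusted p = 4.36e-12) in CD4+ and −1.08 ± 0.07 (adjusted p = 7.57e-10) and −1.21 ± 0.07 (adjusted p = 3.56e-11) in CD8+ cells. From 5 to 50 mg/kg the change was −0.26 ± 0.08 (adjusted p = 0.0167) in CD4+ and −0.12 ± 0.08 (adjusted p = 0.249) in CD8+ cells. The former was −0.17 (adjusted p = 0.124) without pool 1 of the 5 mg/kg group and −0.15 (adjusted p = 0.173) over cells of at least 2000 UMIs.

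*Nfatc3* is the third of the calcium-regulated forms in T cells. Its CD4+ pools were at 219.9, 211 and 214 CPM in saline, 144, 142 and 143 CPM at 5 mg/kg and 156, 151 and 160.3 CPM at 50 mg/kg. The CD8+ pools were at 204, 199 and 178 CPM, 118, 115 and 119 CPM, and 117, 117 and 114 CPM. The whole fall was present at 5 mg/kg, and in CD4+ cells the pools of the higher dose lay slightly above those of the lower. The changes from saline were −0.59 ± 0.05 (adjusted p = 7.33e-10) and −0.47 ± 0.04 (adjusted p = 4.92e-09) in CD4+ and −0.73 ± 0.05 (adjusted p = 1.86e-09) and −0.74 ± 0.05 (adjusted p = 3.43e-10) in CD8+ cells. The rise of 0.12 ± 0.05 from 5 to 50 mg/kg in CD4+ cells was called only narrowly (adjusted p = 0.0430), and with the pool number as a block it was not (adjusted p = 0.0595), nor with DESeq2 (adjusted p = 0.105) or without any 1 pool other than pool 2 of the 50 mg/kg group. With library sizes it was 0.041 (adjusted p = 0.506).

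*Nfat5*, whose product has no calcineurin docking region, had the largest fall of the 9 genes at 50 mg/kg in both lineages. Its CD4+ pools were at 64.3, 63.6 and 57.1 CPM in saline, 38.2, 29.8 and 33.9 CPM at 5 mg/kg and 24.5, 18.7 and 22.2 CPM at 50 mg/kg. The CD8+ pools were at 55.1, 57.8 and 57.0 CPM, 23.2, 22.3 and 25.5 CPM, and 12.5, 14.7 and 13.8 CPM. The 3 groups stood apart in both lineages, the CD8+ pools at 50 mg/kg being the lowest. The changes from saline were −0.86 ± 0.09 (adjusted p = 1.46e-07) and −1.50 ± 0.10 (adjusted p = 1.24e-11) in CD4+ and −1.25 ± 0.08 (adjusted p = 3.60e-10) and −2.05 ± 0.08 (adjusted p = 2.21e-13) in CD8+ cells. The step from 5 to 50 mg/kg was −0.63 ± 0.11 (adjusted p = 9.72e-05) in CD4+ and −0.80 ± 0.10 (adjusted p = 5.01e-06) in CD8+ cells.

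*Rcan1* was scarce in all groups. The CD4+ pools held 42, 22 and 40 UMIs of it in saline, 22, 34 and 28 with the lower and 18, 21 and 21 with the higher dose, which are 8.80, 3.26 and 6.11 CPM, 5.68, 7.68 and 4.92 CPM, and 3.10, 3.50 and 3.14 CPM. The CD8+ pools held 30, 53 and 43 UMIs, 10, 27 and 37, and 25, 20 and 46, which are 3.66, 5.33 and 4.48 CPM, 2.47, 4.89 and 4.72 CPM, and 3.47, 2.66 and 4.70 CPM. One CD4+ saline pool, at 3.26 CPM, lay within the range of the 50 mg/kg pools, and the CD8+ groups overlapped throughout. In CD4+ cells the change at 50 mg/kg was −0.84 ± 0.30 (adjusted p = 0.0172), the change at 5 mg/kg was 0.05 ± 0.28 (adjusted p = 0.905), and the step between the doses was −0.89 ± 0.31 (adjusted p = 0.0275). Without saline pool 1, the highest, the change at 50 mg/kg was −0.52 (adjusted p = 0.137), without saline pool 3 it was −0.81 (adjusted p = 0.0513), and over cells outside the cycling clusters it was −0.64 (adjusted p = 0.138). The step between the doses was not called by DESeq2 (adjusted p = 0.0581), nor without pool 1 or 2 of the 5 mg/kg or pool 1 or 3 of the 50 mg/kg group, with −0.69 as the smallest fall. In CD8+ cells the changes were −0.11 ± 0.26 (adjusted p = 0.749) and −0.30 ± 0.25 (adjusted p = 0.286) under TMM, and the latter was −0.83 (adjusted p = 0.00531) with library sizes.

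Between the doses themselves, 4 of the 9 genes were lower and 2 higher at 50 than at 5 mg/kg in CD4+ cells, against 21.3% and 19.9% of all genes. In CD8+ cells 3 were lower and 2 higher, against 21.0% and 20%. *Nfatc1* and *Nfat5* were lower and *Ppp3ca* was higher in both. *Ppp3cb* was lower at 50 than at 5 mg/kg in CD8+ cells, by −0.22 ± 0.07 (adjusted p = 0.0182) with overlapping pools and −0.13 (adjusted p = 0.205) without pool 3 of the 5 mg/kg group, and its change was −0.02 (adjusted p = 0.839) in CD4+ cells. *Ppp3cc* was higher by 0.30 ± 0.07 (adjusted p = 0.00184) in CD8+ cells, by 0.19 with library sizes and by 0.20 (adjusted p = 0.108) over cells outside the cycling clusters, with −0.00 (adjusted p = 0.971) in CD4+ cells.

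**Figure D2:**
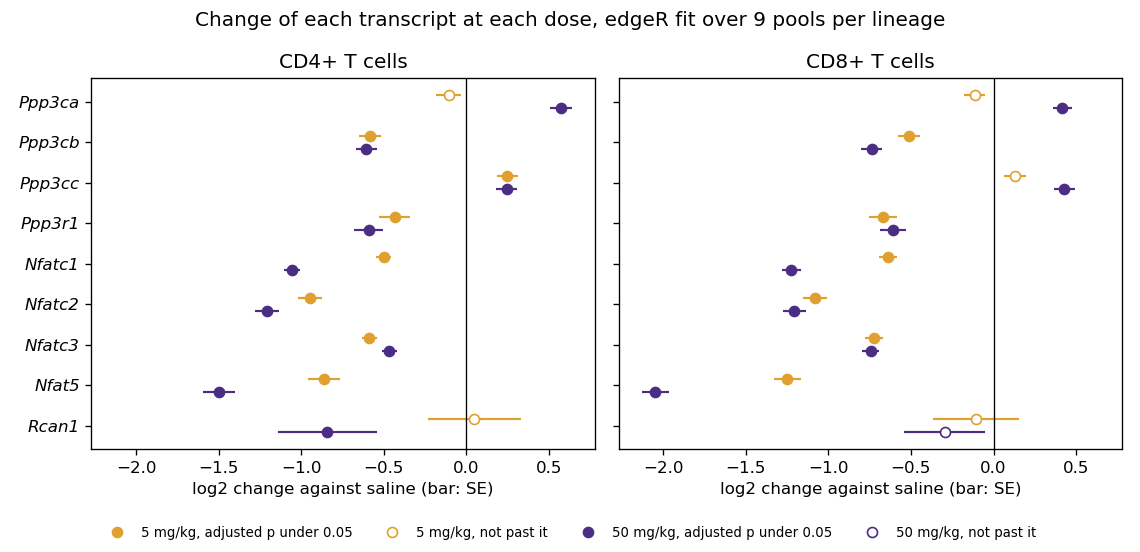
Log2 change from saline (x axis, edgeR with TMM scaling, bars are 1 SE, filled points passed an adjusted p of 0.05 and open points did not) of each of the 9 genes at 5 and 50 mg/kg CSA in CD4+ and CD8+ cells, 3 pools in each group. The *Nfat5* change at 50 mg/kg is the lowest in both lineages, at −1.50 in CD4+ and −2.05 in CD8+ cells. *Ppp3ca* and *Ppp3cc* are right of 0 at 50 mg/kg, whereas with library sizes *Ppp3cc* was below 0 in both lineages and *Ppp3ca* was at 0.13 in CD4+ and −0.11 in CD8+ cells.

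The lineages differed already in saline. *Ppp3ca* was higher in CD8+ than in CD4+ cells by 0.43 ± 0.06 (adjusted p = 6.11e-06) and *Ppp3cb* by 0.23 ± 0.05 (adjusted p = 0.00102), in a fit with the pool as a block. *Nfatc1* was lower in CD8+ cells by a log2 difference of −0.34 ± 0.04 (adjusted p = 4.17e-07) and *Nfatc2* by −0.24 ± 0.06 (adjusted p = 0.00210). The other 5 genes were not called, and DESeq2 did not call *Ppp3cb* (adjusted p = 0.133) or *Nfatc2* (adjusted p = 0.126). That makes 2 of 9 lower and 2 higher, beside 18.5% and 21.6% of the 11177 genes tested.

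The same fit tested whether CSA changed a gene by more in one lineage. At 50 mg/kg the fall was larger in CD8+ cells for *Nfat5*, by −0.58 ± 0.13 (adjusted p = 0.00224), for *Nfatc3*, by −0.31 ± 0.06 (adjusted p = 0.000839), and for *Nfatc1*, by −0.20 ± 0.07 (adjusted p = 0.0387). These 3 of 9 were lower and none higher, against 10.5% and 8.83% of all genes. DESeq2 called none of the 3 (adjusted p = 0.144 for *Nfat5*, 0.0798 for *Nfatc3* and 0.464 for *Nfatc1*). The *Nfatc1* difference was also lost without any 1 saline pool and without pool 1 or 3 of the 50 mg/kg group, being −0.13 (adjusted p = 0.261) without pool 1. At 5 mg/kg edgeR called 0 of the 9, with 4 at an unadjusted p under 0.05, DESeq2 also called 0, and 3.57% of all genes were called. With library sizes the share of calls that were lower moved from 54.3% to 68.9% at 50 mg/kg and from 42.6% to 59.6% at 5 mg/kg. *Nfatc2*, by contrast, had a difference of only −0.03 ± 0.10 between the lineages at 50 mg/kg (adjusted p = 0.883).

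Shares within a family do not depend on the scaling of the libraries. Of the UMIs of the 3 catalytic subunit genes in CD4+ cells, *Ppp3cb* held 36.6% ± 0.789 (SD, n = 3) in saline, 26.3% ± 1.06 with the lower and 22.4% ± 0.819 with the higher dose. In CD8+ cells its share went from 36.4% ± 0.970 to 28.2% ± 2.11 and 20.4% ± 0.863. The *Ppp3cb* pools of the 3 groups did not overlap in either lineage, and the share fell with the dose (adjusted p = 0.00417 in each). *Ppp3ca* held 27.3% ± 1.84, 27.2% ± 0.294 and 37.7% ± 1.93 in CD4+ cells (adjusted p = 0.0375) and 30.9% ± 1.26, 32.1% ± 2.43 and 38.7% ± 1.59 in CD8+ cells (adjusted p = 0.0648). *Ppp3cc* was highest at 5 mg/kg in CD4+ cells, at 46.5% ± 1.29 between 36.1% ± 1.54 and 39.9% ± 2.14 (adjusted p = 0.388), and went from 32.6% ± 2.21 to 39.7% ± 0.334 and 40.9% ± 1.38 in CD8+ cells (adjusted p = 0.0222). The test was a two-sided exact permutation test of the trend over the 1680 ways to assign 9 pools to 3 groups of 3, adjusted over 14 shares. It was chosen after the data had been seen, and its smallest possible p is 0.00119. Over cells outside the cycling clusters the CD8+ *Ppp3cc* share rose by 4.25 percentage points (adjusted p = 0.388), in place of 8.26, and its call was also lost without saline pool 2 or without pool 2 or 3 of the 50 mg/kg group. The call of the CD4+ *Ppp3ca* share was lost over those cells (adjusted p = 0.129), over cells of at least 2000 UMIs (adjusted p = 0.0648), without any 1 pool of the 50 mg/kg group and without saline pool 2 or 3.

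Of the UMIs of the 4 NFAT genes, *Nfat5* held 9.07% ± 0.336, 7.67% ± 0.889 and 5.94% ± 0.592 in CD4+ and 10.2% ± 0.658, 7.34% ± 0.286 and 5.25% ± 0.265 in CD8+ cells (adjusted p = 0.00417 in each). *Nfatc3* rose as a share, from 31.7% ± 1.05 over 32.3% ± 0.763 to 42.5% ± 0.767 in CD4+ (adjusted p = 0.0375) and from 34.9% ± 0.725 over 36.4% ± 0.844 to 44.6% ± 1.81 in CD8+ cells (adjusted p = 0.01). The CD4+ call was lost outside the cycling clusters (adjusted p = 0.191), over cells of at least 2000 UMIs (adjusted p = 0.0648), and without any 1 pool of the 50 mg/kg group, saline pool 2 or pool 3 of the 5 mg/kg group (adjusted p = 0.085 to 0.106). Its level at 50 mg/kg was lower than in saline, as given above, with a smaller log2 change than those of the other NFAT genes. *Nfatc1* had its highest share at 5 mg/kg, 48.0% ± 1.52 in CD4+ and 44.4% ± 0.763 in CD8+ cells, against 44.2% ± 0.800 and 40.2% ± 0.469 in saline and 39.5% ± 0.177 and 36.6% ± 1.74 at 50 mg/kg, an up and down course for which the trend test gave an adjusted p of 0.388 in each. *Nfatc2* went from 15.0% to 12.1% and 12.1% in CD4+ (adjusted p = 0.103) and from 14.6% to 11.9% and 13.6% in CD8+ cells (adjusted p = 0.388).

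**Figure D3:**
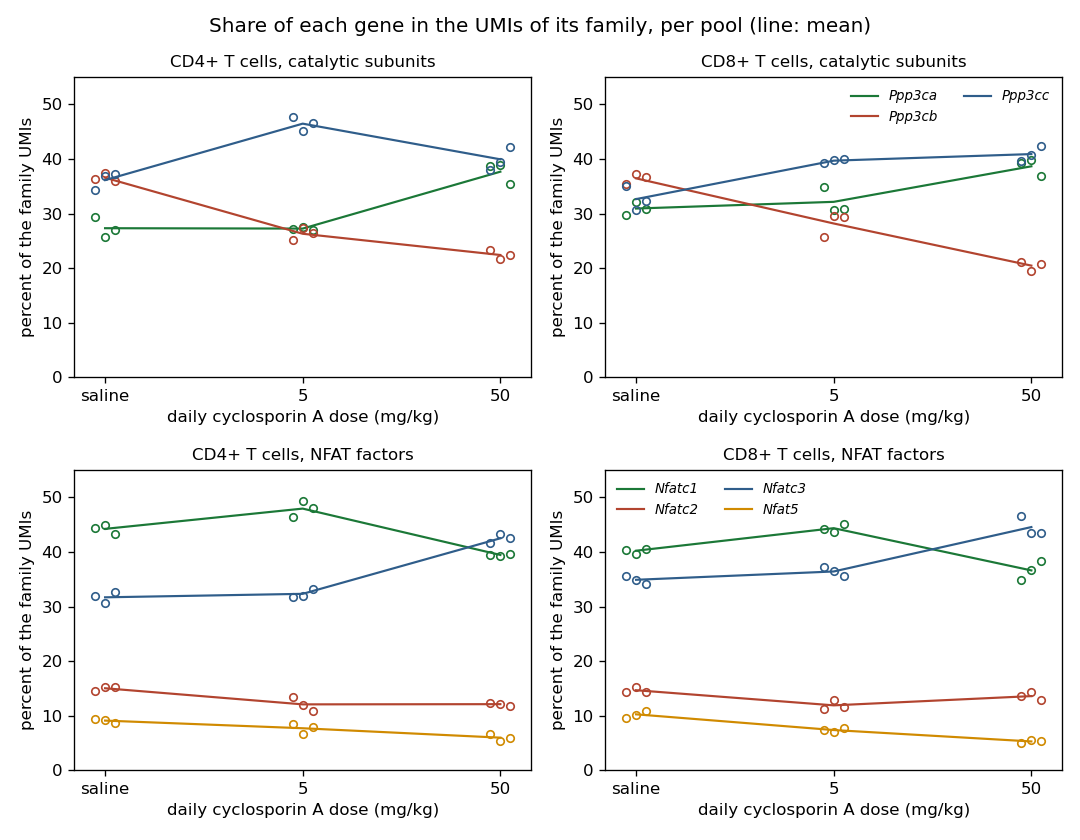
Share of each catalytic subunit gene and of each NFAT gene among the UMIs of its family (y axis, percent) per pool, by group and lineage. Points are pools and lines join group means. The *Ppp3cb* and *Nfat5* shares fall at each dose in both lineages, and those of *Ppp3ca* and *Nfatc3* are highest at 50 mg/kg.

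Levels by cluster are given as CPM of all UMIs of a cluster in a pool, without TMM, and are a description, since the same counts made the clusters. The study's cluster names are used, and its codes in the plots were, for CD4+ cells, C0 and C1 for *Cd226*-high and *Cd226*-low effectors, C2 for the *Tcf7*-high precursor-like cluster, C3, C5 and C6 for cycling clusters 1 to 3, C4 for follicular helper, C7 for cytotoxic, C8 for *Fcer1g*-high, C9 for naive, C10 for *Isg15*-high and C11 for regulatory cells. For CD8+ cells they were C0 and C1 for *Cd226*-high and *Cd226*-low effectors, C2 to C4 for cycling clusters 1 to 3, C5 for *Tcf7*-high, C6 for *Fcer1g*-high, C7 for naive and C8 for exhausted cells. Ranks are over the 10 CD4+ and 9 CD8+ clusters with at least 20 cells in each saline pool. In saline *Ppp3ca* separated CD4+ clusters more than its partners did: it was highest in the *Cd226*-high effector cluster (132 ± 9.78 CPM, SD, n = 3 pools), which did not overlap with the next cluster, and lowest in the follicular helper (31.9 ± 10.7 CPM), cytotoxic CD4+ (24.0 ± 11.8 CPM) and *Tcf7*-high precursor-like (20.9 ± 7.93 CPM) clusters, which overlapped with each other. In CD8+ cells it was also highest in the *Cd226*-high effector cluster (134 ± 21.1 CPM), overlapping with the next, and lowest in the naive cluster (33.9 ± 5.10 CPM).

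*Nfatc1* had another order. It was highest in the CD4+ follicular helper (528 ± 47.7 CPM) and cytotoxic (521 ± 61.3 CPM) clusters, which overlapped, then in the *Cd226*-high effector cluster (427 ± 29.2 CPM), and it was lowest in the *Cd226*-low effector (169 ± 22.6 CPM) and naive (149 ± 22.6 CPM) clusters. Of the CD8+ clusters the exhausted one had the highest level (552 ± 131 CPM), above the *Tcf7*-high cluster (341 ± 43.5 CPM) with no overlap, and the naive one had the lowest (95.5 ± 38.9 CPM). Thus the follicular helper and cytotoxic CD4+ clusters, which led for *Nfatc1*, were among the lowest 3 of 10 for *Ppp3ca*.

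*Nfat5* was highest in the follicular helper cluster (118 ± 18.5 CPM) of the CD4+ cells and in the exhausted cluster (144 ± 41.6 CPM) of the CD8+ cells, each overlapping with the next in order, and lowest in cycling cluster 1 of the CD4+ cells (26.8 ± 9.29 CPM) and in naive CD8+ cells (16.3 ± 15.2 CPM). *Nfatc2* (176 ± 17.3 CPM) and *Nfatc3* (396 ± 27.9 CPM) were both highest in the CD4+ *Cd226*-high effector cluster, *Nfatc2* with and *Nfatc3* without overlap with the follicular helper cluster. *Ppp3cb* was highest in cycling cluster 3 in both lineages (135 ± 4.95 CPM in CD4+ and 151 ± 8.79 CPM in CD8+ cells). *Ppp3r1* was at 74.3 ± 4.34 CPM in the follicular helper and at 65.7 ± 4.41 CPM in CD8+ cycling cluster 3, each the highest of its lineage. *Ppp3cc* varied least in order, with overlap between all neighbours in both lineages. *Rcan1* rested on 1 to 37 UMIs a cluster, all neighbours overlapped, and its highest mean, 17.8 ± 13.2 CPM in cytotoxic CD4+ cells, came from 15 UMIs.

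A few clusters were present at 5 but not at 50 mg/kg in enough cells, and in them the fall of *Nfatc1* was not seen at 5 mg/kg. In the CD4+ follicular helper cluster *Nfatc1* was at 593 ± 76.0 CPM at 5 mg/kg against 528 ± 47.7 CPM in saline, in CD4+ cycling cluster 3 at 425 ± 94.4 against 363 ± 29.5 CPM, and in CD8+ cycling cluster 3 at 311 ± 69.1 against 311 ± 3.86 CPM. *Nfat5* was likewise at 118 ± 40.6 against 118 ± 18.5 CPM, 116 ± 35.2 against 82.0 ± 5.46 CPM, and 94.9 ± 44.6 against 85.2 ± 4.87 CPM in these clusters. *Ppp3ca* was at 144 ± 8.25 against 88.1 ± 11.7 CPM in CD4+ and at 164 ± 5.22 against 110.1 ± 4.28 CPM in CD8+ cycling cluster 3. No test was made in these clusters. CD8+ cycling cluster 3 held only 22, 26 and 33 cells in the 5 mg/kg pools, against 319, 370 and 326 in the saline pools. Which cells count as members of a cluster can itself move with the treatment.

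Clusters with at least 20 cells in all 9 pools, 7 of the CD4+ and 6 of the CD8+ cells, were fitted one by one at 50 mg/kg against saline. Over the CD4+ clusters the 9 genes gave 51 tests, of which 24 were lower and 4 higher, against 17.1% and 16.4% of 42870 tests over all genes. Over the CD8+ clusters they gave 46 tests, 27 lower and 5 higher, against 23.1% and 22.2% of 40584. Membership of a cluster rests on the same counts and can move with the treatment. With library sizes the share of calls that were lower moved from between 48.8% and 57.8% to between 73.7% and 80.5% in the CD4+ clusters and from between 50.2% and 51.8% to between 80.6% and 83.2% in 5 of the 6 CD8+ clusters, the naive one going from 64.4% to 62.1%.

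The NFAT genes fell inside most clusters. *Nfatc1* was lower in 7 of 7 CD4+ clusters, by −0.48 in the precursor-like to −1.51 in the naive cluster, and in 5 of 6 CD8+ clusters, by −0.78 in the *Cd226*-low effector to −1.34 in the *Fcer1g*-high cluster. The CD4+ naive cluster held 37 UMIs of it in saline. Its calls in the CD4+ precursor-like cluster and cycling cluster 1 were lost without 1 of the pools (edgeR adjusted p = 0.0509 to 0.0715). *Nfatc2* was lower in each of the 6 CD4+ clusters (−0.62 to −1.56) and 5 CD8+ clusters (−0.58 to −1.68) in which it could be tested. DESeq2 did not call it in the CD4+ precursor-like (adjusted p = 0.0891), cycling 1 (0.0814) and cytotoxic (0.0550) clusters or the CD8+ *Cd226*-low effector cluster (0.130). Its call in each of these, and in the CD4+ *Cd226*-low effector cluster, was also lost without 1 of the pools. *Nfat5* was lower in 4 of 6 CD4+ clusters, with changes from −0.40 to −2.06 over all 6, and in 5 of 5 CD8+ clusters (−1.06 to −2.21). Its call in the *Cd226*-low effector cluster of each lineage was lost without 1 of the pools, and in CD4+ cells also with DESeq2 (adjusted p = 0.159). *Nfatc3* was lower in only 2 of 7 CD4+ clusters, the *Cd226*-high effector cluster (−0.73, adjusted p = 1.36e-07) and cycling cluster 2 (−0.61, adjusted p = 0.000167), and was at 0.22 and not called in the precursor-like cluster, but it was lower in 5 of 6 CD8+ clusters. Its calls in the CD8+ *Cd226*-low effector and *Fcer1g*-high clusters were lost without 1 of the pools, the latter also with DESeq2 (adjusted p = 0.120).

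Among the CD4+ clusters fitted, *Ppp3ca* had its largest rises in the cytotoxic and precursor-like clusters. Both were low in it in saline, with 21 and 34 UMIs over the saline pools. The follicular helper cluster, also low in saline, was not fitted. In the precursor-like cluster its pools were at 13, 18.9 and 28.2 CPM (TMM) in saline, 24.4, 21.5 and 24.1 CPM at 5 mg/kg and 56.0, 69.3 and 54.1 CPM at 50 mg/kg. In the cytotoxic cluster they were at 29.0, 9.40 and 27.1 CPM, 38.5, 28.3 and 47.6 CPM, and 83.4, 103 and 66.1 CPM. In both clusters every 50 mg/kg pool was above every saline pool, with changes of 1.53 ± 0.27 (adjusted p = 2.25e-05) and 2.00 ± 0.34 (adjusted p = 6.52e-05) under TMM and of 1.36 and 1.66 with library sizes. In the *Cd226*-high effector cluster, the highest in saline, the pools were at 124, 110.0 and 108 CPM in saline and 119, 111 and 96.1 CPM at 50 mg/kg, a change of −0.06 ± 0.13 (adjusted p = 0.747). Rises of 0.46 in the CD4+ *Cd226*-low effector cluster, 0.61 in its CD8+ counterpart and 0.30 and 0.31 in CD8+ cycling clusters 1 and 2 were called under TMM, of which the 0.46 became 0.35 (adjusted p = 0.113) and the last pair became −0.06 and −0.15 with library sizes.

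*Ppp3cb* was lower in 3 of 7 CD4+ and 4 of 6 CD8+ clusters and *Ppp3r1* in 2 of 6 and 3 of 5, with none higher. *Ppp3cc* was higher in the CD4+ precursor-like cluster (0.49, adjusted p = 0.0303) and in CD8+ cycling clusters 1 and 2 (0.34 in each) under TMM, and with library sizes these were 0.32 (adjusted p = 0.181), −0.03 and −0.12. *Rcan1* could be tested in CD8+ cycling cluster 1 alone, where its change was −0.26 ± 0.43 (adjusted p = 0.637). Of the 60 calls inside clusters, 19 were lost without 1 of the pools, 11 in CD4+ and 8 in CD8+ cells, among them that of *Ppp3cb* in CD4+ cycling cluster 1, which was −0.33 without saline pool 2 and −0.56 with it. With DESeq2 12 of the 60 calls were lost, 7 in CD4+ and 5 in CD8+ cells.

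Whether the change at 50 mg/kg differed between the clusters was tested with an F test of cluster by dose, pool as a block, over all clusters fitted in a lineage, which was chosen after the data had been seen. In CD4+ cells 5 of the 8 genes tested differed, beside 26.4% of 8316 genes: *Ppp3ca* (adjusted p = 2.11e-08), *Nfatc3* (5.24e-05), *Nfat5* (0.00129), *Nfatc2* (0.0181) and *Nfatc1* (0.0272). In CD8+ cells 3 of 8 did, beside 23.0% of 8833 genes: *Ppp3cb* (0.00659), *Nfatc3* (0.0181) and *Nfatc1* (0.0412). *Ppp3cc* gave no call in either lineage (adjusted p = 0.492 and 0.849), nor did *Ppp3r1* (0.0661 and 0.227). Without pool 2 of the saline or of the 50 mg/kg group 3 were called in CD4+ cells, without pool 2 or 3 of either of these groups 1 was called in CD8+ cells, and with library sizes 7 were.

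**Figure D4:**
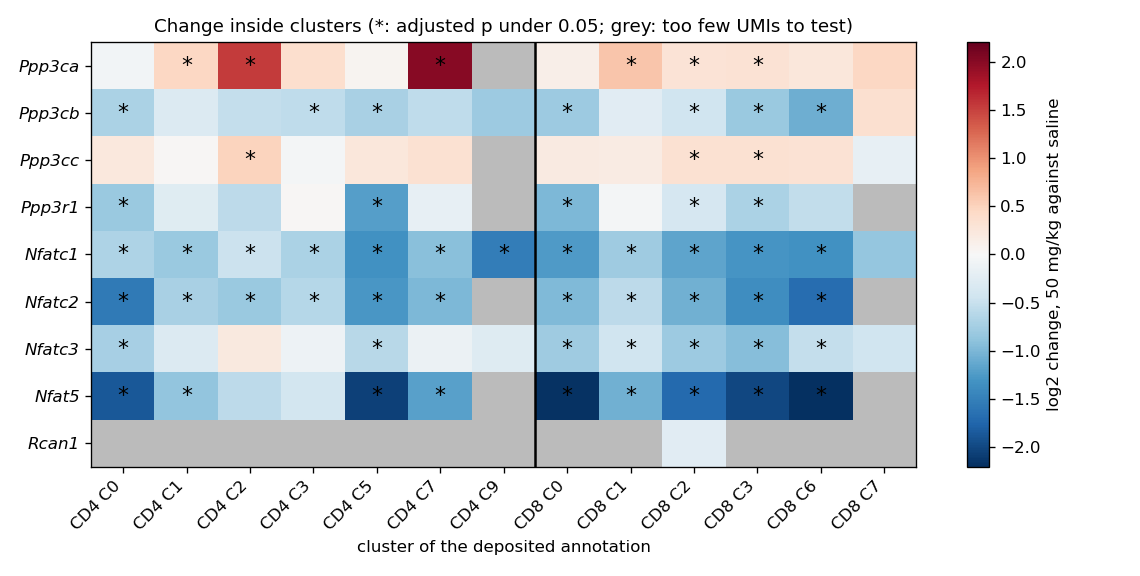
Heat map of the log2 change at 50 mg/kg against saline (colour, edgeR, TMM scaling) of each gene (rows) within each fitted cluster (columns) of CD4+ and CD8+ cells, with a star where the adjusted p was below 0.05 and grey where the UMIs were too few to test. *Nfatc1* and *Nfatc2* are negative in all clusters tested, and *Ppp3ca* reaches 1.53 and 2.00 in the precursor-like (C2) and cytotoxic (C7) CD4+ clusters, and its smaller rises in CD8+ cycling clusters turn below 0 with library sizes.

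The mix of clusters also changed with CSA, and its arithmetic share can be given. With each cluster held at its saline level and only the clusters' shares of UMIs set to those at 50 mg/kg, *Nfatc1* in CD4+ cells would have gone from 360.2 to 282 CPM, and 128 CPM was observed. *Nfat5* would have gone from 73.7 to 51.8 CPM, against 19.3 CPM observed. In CD8+ cells the corresponding values were 278, 241 and 82.6 CPM for *Nfatc1* and 70.6, 55.3 and 11.8 CPM for *Nfat5*. *Ppp3ca* in CD4+ cells would have stayed at 74.5 CPM from 74.7 CPM, and 82.0 CPM was observed. In CD8+ cells *Ppp3ca* would have gone from 98.4 to 90.3 CPM, and 90.5 CPM was observed. These are sums over the pools of a group as CPM of all UMIs, with no TMM and no test.

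Cells of expanded clonotypes, those with at least 2 cells of the same T cell receptor in a pool, were compared with cells whose receptor was seen once. Of the 9 genes, edgeR called 0 in CD4+ cells, with 1 at an unadjusted p under 0.05 (*Nfatc1*, 0.11 ± 0.05, adjusted p = 0.15), where 16.4% of 9735 genes were called. In CD8+ cells it also called 0, with none at an unadjusted p under 0.05, where 11.6% of 9969 genes were called. DESeq2 called 0 in each. The changes of the genes other than *Rcan1* lay between −0.10 and 0.14 in CD4+ and between −0.10 and 0.09 in CD8+ cells, and *Rcan1* was at 0.40 ± 0.27 (adjusted p = 0.366) and 0.13 ± 0.22 (adjusted p = 0.790). Other settings gave calls in CD4+ cells. Over cells outside the cycling clusters edgeR called *Nfatc1* (0.33, adjusted p = 0.00136). With clonotypes of at least 3 cells it called *Ppp3ca* (0.31, adjusted p = 0.0157).

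TEa cells, which all carry the same receptor for a recipient antigen, numbered 123 in the saline group, 130 in that given 5 mg/kg and 27 in that given 50 mg/kg, too few for a fit. *Nfatc1* was at 364 ± 169, 173 ± 15.6 and 126 ± 71.3 CPM in them (SD over 3 pools, CPM of all UMIs), beside 361, 199 and 128 CPM in the other CD4+ cells. *Nfat5* was at 72.7 ± 4.39, 38.6 ± 18 and 17.6 ± 3.30 CPM, beside 74.0, 31.8 and 19.3 CPM. *Ppp3r1* was at 32.2, 11.2 and 4.71 CPM, the last from 1 UMI, beside 51.0, 29.6 and 25.0 CPM. *Rcan1* had 5, 4 and 0 UMIs.

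Other genes of the pathway were counted by lists, to be read against all genes tested, of which 35.8% were lower and 34.7% higher at 50 mg/kg in CD4+ and 36.9% and 37.1% in CD8+ cells under TMM. The lists were chosen with earlier results of these data known, so their counts are a description. Of 10 tested genes for proteins that bind calcineurin or its drugs, 7 were higher and 1 lower at 50 mg/kg in CD4+ and 7 higher and 3 lower in CD8+ cells under TMM, with medians of 0.70 and 0.55, and with library sizes 7 and 4 were higher and 3 and 3 lower, with medians of 0.27 and 0.02. *Ppia*, which encodes cyclophilin A, the protein that CSA binds, went from 2815 ± 23.0 over 4167 ± 124 to 5128 ± 17.9 CPM in CD4+ cells (0.87 ± 0.03, adjusted p = 2.66e-16), and rose also with library sizes (0.43, adjusted p = 2.88e-12). In CD8+ cells its change was 0.93 ± 0.03 (adjusted p = 3.06e-14), and 0.40 with library sizes. *Tbc1d10c*, whose product binds and inhibits calcineurin, went from 207 ± 7.56 over 286 ± 4.06 to 420.2 ± 13.8 CPM in CD4+ cells, with changes of 1.02 ± 0.04 (adjusted p = 6.56e-15) in CD4+ and 1.08 ± 0.04 (adjusted p = 1.69e-13) in CD8+ cells. *Fkbp8* (0.78 and 0.76) rose too, and these 3 genes stayed higher with library sizes in both lineages. *Rcan2* and *Ppp3r2* were not in the table, nor was *Nfatc4*.

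Of 12 tested genes for NFAT kinases and transport, 7 were lower and 2 higher in CD4+ and 6 lower and 2 higher in CD8+ cells at 50 mg/kg, with medians of −0.33 and −0.15 beside −0.01 and 0.00 over all genes. With library sizes they were 8 lower and 1 higher and 10 lower and none higher, with medians of −0.77 and −0.68. The exportin gene *Xpo1*, which takes NFAT out of the nucleus, was lower by −1.26 ± 0.07 (adjusted p = 1.37e-12) and −1.60 ± 0.06 (adjusted p = 1.89e-13). *Kpnb1*, an importin gene, was lower by −0.64 and −1.03, the NFAT kinase gene *Dyrk1a* by −1.13 and −1.05, and the kinase gene *Gsk3a* was higher by 0.61 and 0.51, of which the CD8+ value was −0.02 (adjusted p = 0.671) with library sizes. *Homer2*, a scaffold that binds NFAT, was listed at 0 in every group. Of 14 genes for calcium store and entry, 12 were lower and 1 higher in CD4+ and 9 lower and 2 higher in CD8+ cells, with medians of −0.47 and −0.55, which were −0.91 and −1.08 with library sizes, among them *Atp2a2*, the pump that fills the store (−0.98 ± 0.07 and −1.26 ± 0.06), the export pump *Atp2b4* (−0.85 and −1.04) and the release channels *Itpr3* (−0.90 and −0.70) and *Itpr1* (−0.77 and −0.82).

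Of other known calcineurin substrates, 5 of 7 were lower and 1 higher in CD4+ (median −0.36) and 4 of 8 lower and 3 higher in CD8+ cells (median −0.10), and with library sizes 6 were lower in each, with medians of −0.79 and −0.63. *Tfeb*, a lysosome factor, was higher by 0.73 ± 0.10 and 0.75 ± 0.09, *Mef2a* was lower by −0.51 and −0.58, *Elk1* by −0.73 and −0.69, and *Crtc3* by −0.74 and −0.20. Of the NFAT target genes of T cells, 9 of 28 were higher and 5 lower in CD4+ cells and 6 of 26 higher and 8 lower in CD8+ cells at 5 mg/kg, near the 26.1% higher and 25.6% lower and the 29.9% and 30.3% of all genes. At 50 mg/kg 1 was higher and 21 lower and 3 higher and 22 lower, with medians of −1.30 and −1.52. With library sizes the CD4+ counts at 5 mg/kg became 5 higher and 14 lower and the CD8+ counts 2 and 15. *Tox*, an exhaustion factor, went from 146 ± 13.1 over 96.0 ± 3.25 to 13.9 ± 1.46 CPM in CD4+ cells and from 164 ± 10.4 over 111 ± 3.91 to 9.48 ± 2.67 CPM in CD8+ cells. *Tox2* was at 41.8 ± 4.97, 38.9 ± 4.12 and 0.730 ± 0.538 CPM in CD4+ cells, and its change at 5 mg/kg was −0.12 (adjusted p = 0.386) under TMM and −0.48 (adjusted p = 0.000746) with library sizes. *Il21*, a helper cytokine gene, was lower by −4.30 ± 0.18 at 50 mg/kg in CD4+ cells (adjusted p = 8.08e-15) and had 146, 54 and 1 UMIs in the 3 groups of CD8+ cells.

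*Ccl1*, *Il3* and *Il4* complete the targets named by the rule. *Ccl1*, a chemokine gene, had in CD8+ cells 521 UMIs without CSA, 1189 with 5 mg/kg and 4 with 50 mg/kg. These were 19.0 ± 4.41, 59.4 ± 40.6 and 0.148 ± 0.153 CPM, with a wide spread between the 5 mg/kg pools. In CD4+ cells *Ccl1* was at 155 ± 30.5, 388 ± 80.0 and 4.64 ± 5.67 CPM, with log2 changes of 1.35 and −5.09 from saline. *Il3* had 1, 1 and 0 UMIs in CD4+ and 5, 2 and 0 in CD8+ cells, and *Il4* had 56, 94 and 22 in CD4+ and 9, 2 and 0 in CD8+ cells. Of 5 genes that NFAT5 is known to drive under osmotic stress, 3 were lower and 1 higher in CD4+ and 4 lower and 1 higher in CD8+ cells at 50 mg/kg, with medians of −0.29 and −0.75, and with library sizes 4 were lower and none higher in each, with medians of −0.73 and −1.28. The inositol transporter gene *Slc5a3* was lower by −2.23 ± 0.23 (adjusted p = 2.11e-08) and −2.11 ± 0.19 (adjusted p = 1.33e-08), *Hspa4l* by −0.63 and −1.12, and the amino acid transporter gene *Slc38a2* by −0.29 and −0.75. The aldose reductase gene *Akr1b3* was higher by 0.50 ± 0.04 and 0.56 ± 0.05 under TMM, with 0.06 (adjusted p = 0.172) and 0.03 (adjusted p = 0.570) under library sizes.

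Over 50 profiles, one for each cluster and group with at least 100 cells, the genes most like *Nfatc1* were *Hif1a* (Pearson's r = 0.94), *Jarid2* (0.93), *Gramd1b* (0.93), *Nfat5* (0.92) and *Rabgap1l* (0.92), among 6076 genes of at least 20 CPM. Of the other pathway genes, *Nfatc2* was at 0.86, *Ppp3r1* at 0.80, *Nfatc3* at 0.73, *Ppp3cb* at 0.71, *Rcan1* at 0.48, *Ppp3cc* at 0.21 and *Ppp3ca* at −0.02. The genes most like *Rcan1*, whose mean was 4.99 CPM, were *Dnajc11* (0.72), *Pfkl* (0.71), *Utp20* (0.71), *Mtap* (0.70) and *Ikbkap* (0.70). Profiles from the same group came from 1 capture and had similar depth, and clusters share pools, so the values describe these libraries only.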

How the data were processed

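The authors deposited a table of raw UMI counts per gene and cell and, per cell, the cluster number, the pool, the T cell receptor, hashtag and surface antibody counts and the fraction of mitochondrial UMIs. The submitters' processing notes name Cell Ranger, Seurat 3.0.0 and the build mm10, with no role or order. Cells were 10x 5′ v2 captures, 1 per group.

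The 9 genes and all gene lists were chosen with earlier results of these data known. UMI counts of the deposited table were summed per pool and lineage, or per pool and cluster of at least 20 cells in each pool, and TEa cells were left out. CD8 clusters are numbered from 1 in the deposited column and were matched to the study's names by their markers. Sums were filtered with filterByExpr, scaled with TMM and fitted with edgeR 4.0.16 (glmQLFit, glmQLFTest, R 4.3.3, limma 3.58.1), with all 9 pools in a fit and p-values adjusted over all genes tested at 0.05. Fits across lineages, across clusters and between clonotype classes had the pool as a block. Python 3.11.15 (pandas 2.3.3, numpy 2.4.6) made the sums and shares. The fits were tested on simulated data.

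Named genes were the 9 genes, from each list up to 4 genes past the threshold at 50 mg/kg in both lineages with the largest mean absolute log2 change plus any at 0 in a group, and the 5 genes most correlated with *Nfatc1* and with *Rcan1* over log2(CPM + 1) of the profiles. Alternatives were DESeq2 1.42.0, no filter, library size scaling, only the groups compared, the pool number as a block, cells outside cycling clusters, cells of at least 2000 UMIs, TEa cells included, clonotypes of 3 cells and leaving out each pool. Cells with a strong second hashtag left out, family shares and the test between clusters were added after the data had been seen. Depth limits *Rcan1* above all, and counting error is part of the spread between pools. Some items are not reported here.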

Additional observations from a re-analysis of the deposited data

Results flagged for a closer look

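Of the 9 genes, 3 had a change at 50 mg/kg that differed between CD4+ and CD8+ cells by the test of that difference (edgeR's quasi-likelihood test, adjusted p below 0.05). The fall was larger in CD8+ cells for *Nfat5*, by −0.58 ± 0.13 (log2, SE), for *Nfatc3*, by −0.31 ± 0.06, and for *Nfatc1*, by −0.20 ± 0.07. DESeq2 called none of these differences.

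Between clusters, the change at 50 mg/kg differed by the F test of cluster by dose, chosen after the data had been seen, for 5 genes in CD4+ and 3 in CD8+ cells. In CD4+ cells the adjusted p of edgeR was 2.11e-08 for *Ppp3ca*, whose changes ran from −0.06 in the *Cd226*-high effector to 2.00 in the cytotoxic cluster. It was 5.24e-05 for *Nfatc3*, with −0.73 in the *Cd226*-high effector and 0.22 in the precursor-like cluster, and 0.00129 for *Nfat5*, with −0.40 in cycling cluster 1 and −2.06 in cycling cluster 2. For *Nfatc2* it was 0.0181 and for *Nfatc1* 0.0272, each with all clusters fitted in the same direction. In CD8+ cells it was 0.00659 for *Ppp3cb*, with −1.08 in the *Fcer1g*-high and 0.35 in the naive cluster, 0.0181 for *Nfatc3* and 0.0412 for *Nfatc1*.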

How the results depend on the processing

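Of 796 alternative values for the 48 called changes over whole lineages, 750 kept their direction and their side of the threshold, 42 were no longer called and 4 reversed, all 4 with library size scaling. Of 660 alternative values for the 60 calls inside clusters, 594 did so, 62 were no longer called and 4 reversed, again with library size scaling. Of 671 for changes that were not called, 42 turned their sign and 12 became called. Of 168 for family shares, 18 lost and 6 gained a call, and of 206 counts of genes called, 15 moved by over 1.5 times. Where a value changed below, the cause was not tested.

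With library size scaling *Ppp3cc* turned to −0.11 at 5 and −0.20 at 50 mg/kg in CD4+ and to −0.29 and −0.10 in CD8+ cells, *Ppp3ca* to −0.11 at 50 mg/kg in CD8+ cells, *Rcan1* to −0.31 at 5 mg/kg in CD4+ cells, and *Ppp3r1* to −0.049 between the doses in CD8+ cells. In CD8+ cycling clusters 1 and 2 *Ppp3ca* turned to −0.065 and −0.15 and *Ppp3cc* to −0.031 and −0.12. With the same scaling 1 gene (*Nfat5*) was called for a different change between lineages at 5 mg/kg, where 0 had been, and 7 were called between CD8+ clusters, where 3 had been.

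DESeq2 called 3 genes between the doses in CD4+ cells (edgeR 6), 2 between the lineages in saline (edgeR 4) and 0 for a different change between lineages at 50 mg/kg (edgeR 3). In CD4+ clonotypes, 1 gene was called with clonotypes of at least 3 cells (*Ppp3ca*, 0.31, adjusted p = 0.0157) and 1 over cells outside the cycling clusters (*Nfatc1*, 0.33, adjusted p = 0.00136), where 0 had been.

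Small changes that were not called turned their sign under other settings. Between the doses in CD4+ cells *Ppp3cc* was 0.0080 with DESeq2, 0.014 with TEa cells included, 0.0013 with no filter, 0.0032 over cells of at least 2000 UMIs, 0.0022 without cells of 2 hashtags and 0.034 outside the cycling clusters, and *Ppp3cb* was 0.028 over cells of at least 2000 UMIs. *Rcan1* at 5 mg/kg in CD4+ cells was −0.057 over cells of at least 2000 UMIs and −0.010 without cells of 2 hashtags. *Nfatc3* between the doses in CD8+ cells was 0.10 outside the cycling clusters and 0.00087 over cells of at least 2000 UMIs. For expanded clonotypes outside the cycling clusters, *Nfatc2*, *Nfatc3* and *Nfat5* were 0.038, 0.020 and 0.067 in CD4+ cells and *Ppp3cb* and *Nfatc2* were −0.065 and 0.11 in CD8+ cells, and *Nfat5* in CD8+ clonotypes of at least 3 cells was −0.011.

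Leaving out each pool in turn gave 3 to 5 genes called between the doses in CD4+ cells, 0 to 1 for a different change between lineages at 5 mg/kg, and 3 to 5 and 1 to 3 between the CD4+ and the CD8+ clusters. The changes that then turned their sign were those of *Rcan1* at 5 mg/kg (−0.28 to 0.37 in CD4+ and −0.25 to 0.082 in CD8+ cells), of *Ppp3cb* (−0.058 to 0.028) and *Ppp3cc* (−0.043 to 0.021) between the doses in CD4+ cells and of *Ppp3r1* (−0.014 to 0.14) in CD8+ cells. Between the lineages in saline they were *Ppp3cc* (−0.0086 to 0.13), *Nfat5* (−0.094 to 0.0094) and *Rcan1* (−0.75 to 0.16), for the change at 5 mg/kg *Ppp3ca* (−0.10 to 0.050), *Ppp3cb* (−0.077 to 0.081) and *Rcan1* (−0.63 to 0.28), for that at 50 mg/kg *Ppp3r1* (−0.090 to 0.030) and *Nfatc2* (−0.11 to 0.023), and between clonotype classes *Ppp3r1* in CD4+ (−0.057 to 0.016) and *Rcan1* in CD8+ cells (−0.035 to 0.23).

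Pool numbers were not a pairing: of 18 correlations between same-numbered pools 1 was over 0.1 (−0.0816 to 0.174). With the number as a replicate block no count moved by over 1.5 times, and of the 9 genes only the call of *Nfatc3* between the doses in CD4+ cells was lost (0.12, adjusted p = 0.0595). Depth limits *Rcan1*, with 18 to 42 UMIs a CD4+ pool, and the clusters with few cells.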
